A study of Rattus norvegicus with 74 samples.

Results

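The miR-181 family was followed in the kidneys of 74 rats from infancy to old age. MiRNAs were taken as members when their array name begins with rno-miR-181a, rno-miR-181b, rno-miR-181c or rno-miR-181d, for either arm and any gene copy, and when at least 1 array detected them. The array carries 10 such strands, and 5 of them met this rule: miR-181a-5p, miR-181b-5p, miR-181c-5p, miR-181d-5p and the passenger strand miR-181a-1-3p. They are 5 of the 311 miRNAs that were detected on at least 1 array, out of 677 on the array.

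The animals were untreated F344 rats, an inbred strain, of both sexes and of 8 ages, with 4 or 5 animals for each age and sex. The young ages were 2, 5, 6 and 8 weeks and the later ones 15, 21, 78 and 104 weeks. RNA came from ground whole kidney, with 1 animal on each single-colour Agilent array, and females were not synchronized for estrous cycle. Whole kidney holds many cell types, so fewer cells of a type and less RNA per cell cannot be told apart in any result here. The tubule miRNAs miR-192-5p, miR-194-5p and miR-204-5p were detected on 74 of 74 arrays.

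A miRNA is cut from a hairpin precursor whose 5p and 3p arms form a duplex. One arm, the guide, is usually kept in the silencing complex and pairs with messenger RNAs through its seed, bases 2 to 8, while the other, the passenger, is mostly degraded. The 5p strand is the guide in the miR-181 family. The family is best known from lymphocytes, in which miR-181a tunes T-cell receptor signalling, and it also occurs in endothelium, brain and developing tissues. Mammals make it from paired genes, in which an a gene lies beside a b gene and a c gene beside a d gene.

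The mature strands that the arrays detected are printed below because their close likeness bears on every comparison. Each is written 5′ to 3′ with the seed in capitals, as listed by RefSeq for the rat assembly GRCr8.

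rno-miR-181a-5p: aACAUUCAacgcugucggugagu

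rno-miR-181b-5p: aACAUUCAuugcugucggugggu

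rno-miR-181c-5p: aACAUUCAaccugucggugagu

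rno-miR-181d-5p: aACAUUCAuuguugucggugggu

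rno-miR-181a-1-3p: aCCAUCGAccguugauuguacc

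The 4 guides share the seed ACAUUCA, and they are the 4 of 693 mature rat strands in the RefSeq table that have it. Between miR-181a-5p and miR-181b-5p there are 3 substitutions, A9U, C10U and A21G, counted from the 5′ end with the base of miR-181a-5p first. A single substitution, C12U, separates miR-181b-5p from miR-181d-5p. MiR-181c-5p, with 22 bases, is 1 edit away from miR-181a-5p, with 23. Whether a probe for one of these strands also bound another was not tested, so the separate courses below are those of the probes as named.

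The never-detected passenger of the c gene is shown beside miR-181a-1-3p because both have the seed CCAUCGA.

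rno-miR-181c-3p: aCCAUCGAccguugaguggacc

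rno-miR-181a-2-3p: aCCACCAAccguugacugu

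Counted from the 5′ end, miR-181a-1-3p differs from miR-181c-3p by U16G and U19G. MiR-181a-2-3p, the passenger of the second a gene, is 6 edits away from miR-181a-1-3p. The hairpins of the c and d genes are given here to show how the 2 arms, in capitals, lie in 1 precursor.

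Mir181c hairpin: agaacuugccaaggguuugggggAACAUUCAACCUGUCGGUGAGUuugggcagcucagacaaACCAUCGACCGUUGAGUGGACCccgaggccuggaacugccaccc

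Mir181d hairpin: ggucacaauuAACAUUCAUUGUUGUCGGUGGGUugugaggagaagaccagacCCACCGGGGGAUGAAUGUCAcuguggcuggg

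In GRCr8, miR-181a-5p lies on the plus strand at chr13:52037081-52037103 in Mir181a-1 and again at chr3:43025601-43025623 in Mir181a2. MiR-181a-1-3p lies at chr13:52037121-52037142 and miR-181b-5p at chr13:52037263-52037285, 182 bases from the start of miR-181a-5p, and both genes of that pair lie within the long noncoding RNA gene LOC108352541. MiR-181c-5p lies at chr19:40888314-40888335 and miR-181d-5p at chr19:40888484-40888506, 170 bases apart from start to start, between the protein-coding genes Zswim4 and Nanos3. Mir181a2 lies within the span of Nr6a1. The hairpin of Mir181b2, which starts 1103 bases after that of Mir181a2, holds the whole sequence of miR-181b-5p as well, at chr3:43026680-43026702. Since both a genes give the same guide, and both b genes likewise, the array cannot tell how much of miR-181a-5p or miR-181b-5p came from chromosome 13 and how much from chromosome 3, whereas the passengers miR-181a-1-3p and miR-181a-2-3p differ.

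Values are normalized intensities: the deposited background-subtracted signal of a miRNA on an array divided by the 75th percentile of the 311 detected miRNAs on that array, so that 1 is the level of that percentile. A miRNA that an array did not detect was set to a floor of 0.0171, which is -5.87 on the log2 scale. Between 190 and 264 miRNAs were detected per array, with a median of 232. The number of arrays per group limits the precision of every mean. Ages of 2 to 8 weeks were on 5 slides and ages of 15 to 104 weeks on 5 others, except for 1 array of a 15-week female, so a comparison across that divide carries a change of slides.

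All 4 guides were detected on 74 of 74 arrays, and miR-181a-1-3p on 46. The other 5 strands, miR-181a-2-3p, miR-181b-1-3p, miR-181b-2-3p, miR-181c-3p and miR-181d-3p, were detected on 0 of 74, and the signals of their probes lay between -2.35 and 2.29, against 33.2 to 850 for the probes of miR-181a-5p. Probes differ in how well they bind, so the level of one miRNA is not set against that of another below. Only changes of each miRNA are compared.

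All members stood highest at 2 weeks in both sexes and fell with age. The guides fell by 2.05- to 4.21-fold between 2 and 104 weeks, most for miR-181c-5p and least for miR-181b-5p. A large share of the fall was already there at 5 weeks. From 5 weeks on 4 members in females and 5 in males were still called with age, where 20.3% and 28.9% of the 311 miRNAs were. That test was chosen after seeing the data and spans both sets of slides. Over 15 to 104 weeks alone 0 members were called in each sex, with 7.40% and 16.7% of the 311. The later steps tested were 5 to 8, 8 to 15 and 21 to 104 weeks, and 0 members passed the fold threshold in them.

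MiR-181a-5p, which dampens phosphatases of antigen receptor signalling in T cells, had normalized intensities of 3.92, 4.96, 4.97 and 5.94 in the 2-week females. The 5-week females ranged from 2.51 to 4.44 around a mean of 3.24 ± 0.837 (SD, n = 4), and at 104 weeks the values were 1.55, 1.79, 1.99, 2.00 and 2.10. The highest 5-week female overlapped the 2-week females, while all 104-week females were below all 5-week females. In males it was at 4.41, 4.75, 5.22, 5.56 and 6.56 at the youngest age, then at 2.56, 2.64, 2.95, 3.11 and 3.44 in the 5-week group, and 104-week males had 1.79, 1.79, 1.95 and 2.09. The 3 groups of males did not overlap.

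MiR-181b-5p, encoded beside miR-181a-5p on chromosomes 13 and 3 and known for restraining NF-kB signalling in endothelium, was at 0.807, 0.837, 0.884 and 1.11 in 2-week females. At 104 weeks the females had 0.382, 0.429, 0.447, 0.459 and 0.487. Both groups lay apart, but the 5-week females spread from 0.570 to 0.996 and overlapped the youngest. In males it was at 0.903, 0.993, 1.07, 1.07 and 1.30 at 2 weeks and at 0.398, 0.433, 0.435 and 0.469 at 104 weeks. The 5-week males lay between them, from 0.548 to 0.684, and overlapped neither.

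MiR-181c-5p, the first strand of the chromosome 19 pair, was at 0.741, 0.747, 0.757 and 0.816 in 2-week females, at 0.328, 0.366, 0.379 and 0.465 in 5-week females and at 0.169, 0.199, 0.201, 0.216 and 0.247 in 104-week females. No 2 of these 3 groups overlapped. Its values in 2-week males were 0.714, 0.739, 0.758, 0.772 and 0.773, those in 5-week males 0.346, 0.355, 0.370, 0.377 and 0.405, and those in 104-week males 0.162, 0.177, 0.182 and 0.193, also without overlap.

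MiR-181d-5p, the second strand of that pair, was at 0.546, 0.555, 0.566 and 0.740 in 2-week females and at 0.170, 0.204, 0.205, 0.211 and 0.226 in 104-week females. The 5-week females lay between, from 0.257 to 0.434. Males went from 0.569, 0.603, 0.621, 0.661 and 0.732 at 2 weeks to 0.174, 0.176, 0.178 and 0.231 at 104 weeks, and the 5-week males lay from 0.267 to 0.326. In both sexes the 3 groups lay apart.

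MiR-181a-1-3p, the passenger of the first a gene, was near the limit of detection after 2 weeks. In 2-week females it was at 0.0961, 0.102, 0.104 and 0.122, and in 2-week males at 0.0737, 0.104, 0.113, 0.129 and 0.144. At 5 weeks the females had 0.0234, 0.0355 and 0.0374 on 3 arrays and were at the floor on 1, and the males had 0.0293, 0.0316, 0.0325, 0.0364 and 0.0776. One 5-week male therefore reached into the range of the 2-week males, and all other animals of 5 weeks lay below all animals of 2 weeks. That overlap rests on the deposited totals, which leave out probes that were not detected. With both probes of the strand summed, the 2-week males lay from 0.104 to 0.144 and the 5-week males from 0.0458 to 0.0776.

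**Figure D1:**
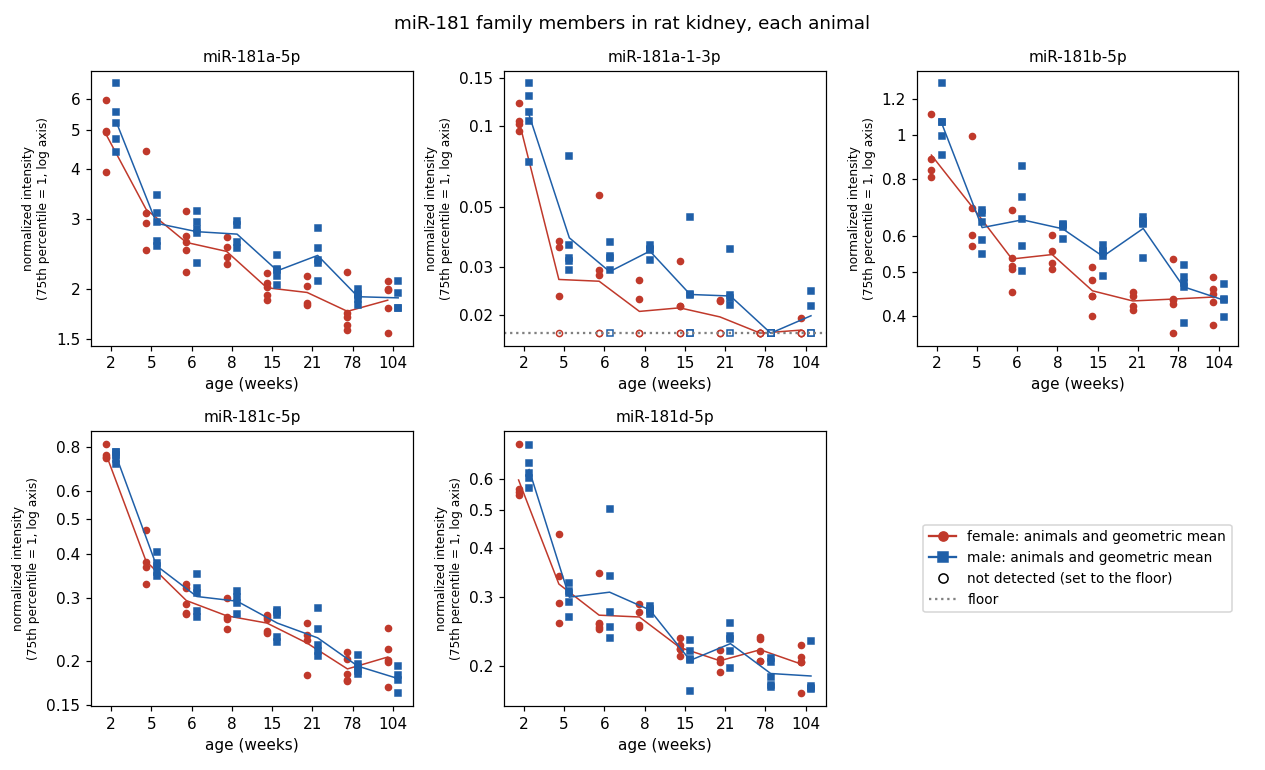
Normalized intensity of the 5 detected members (vertical log axes, 75th percentile of each array = 1) in every animal at 8 ages (horizontal axis, weeks). Filled points are animals, lines join geometric means, and open points at the dotted floor of 0.0171 are arrays on which miR-181a-1-3p was not detected. All 5 members are highest at 2 weeks in both sexes.

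Changes with age were tested with limma within each sex, with p-values adjusted over the 311 detected miRNAs. An age effect was called at an adjusted p under 0.05 together with a pair of ages at least 1.5-fold apart. All 5 members were called in females, where 36.7% of the 311 miRNAs were, and all 5 in males, where 45.3% were. The adjusted p-values from limma lay between 2.79e-15 for miR-181c-5p and 8.81e-08 for miR-181b-5p in females, and between 9.30e-20 and 1.68e-09 in males.

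Between 2 and 104 weeks all 5 members fell in both sexes, against 12.2% of all detected miRNAs called as falling in females and 17.7% in males. The median log2 difference over the members was -1.56 in females and -1.75 in males, and over all 311 miRNAs it was -0.00 and 0.00. In females the log2 differences were -1.39 for miR-181a-5p, -1.04 for miR-181b-5p, -1.90 for miR-181c-5p and -1.56 for miR-181d-5p, with adjusted p-values from limma of 3.86e-11 or lower. The males had -1.47, -1.29, -2.07 and -1.75 in the same order. With slide as a block, a fit that rests on the single 15-week female shared by both sets of slides, these 8 values lay between -0.94 and -2.11 and all were still called. With normexp background correction, which adds 50 to every signal, miR-181c-5p stayed called in females (-0.66), while miR-181a-5p (-0.58, adjusted p = 0.0662 from limma), miR-181d-5p (-0.51) and miR-181b-5p (-0.35) were not, and in males the 4 guides stayed called, from -0.81 to -1.21.

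Animals of 2 and 5 weeks shared slides, and between these ages 4 of 5 members fell in females, where 11.9% of all miRNAs were called as falling. MiR-181c-5p was 2.01-fold lower (95% interval of the log2 difference from -1.20 to -0.81), and the log2 difference was -0.88 for miR-181d-5p (-1.15 to -0.62) and -0.63 for miR-181a-5p (-0.87 to -0.39). MiR-181b-5p differed by -0.37 with an adjusted p of 0.0177 from limma, which is under the fold threshold. The call for miR-181a-5p was lost without 2-week female replicate 3 (-0.53) or 5-week female replicate 5 (-0.52), with the percentile taken over all miRNAs of the array (-0.52), and with the methods' t-test (adjusted p = 0.0926). With normexp it was -0.11, and 0 members were called. On the 3 slides with females of both ages, the 5-week animal was lower on 3 of 3 for each member except miR-181b-5p, for which it was lower on 2 of 3.

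Males showed the same step without an exception, with 5 of 5 members called as falling between 2 and 5 weeks, against 12.5% of all miRNAs. The log2 differences were -0.84 for miR-181a-5p, -0.76 for miR-181b-5p, -1.02 for miR-181c-5p and -1.08 for miR-181d-5p, with adjusted p-values of 5.62e-08 or lower from limma. With normexp miR-181a-5p alone stayed called (-0.77). On each of the 5 slides with males of both ages, all members were lower at 5 weeks. Of the log2 fall from 2 to 104 weeks, the guides had completed 36.0% to 56.6% by 5 weeks in females and 49.2% to 61.8% in males.

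**Figure D2:**
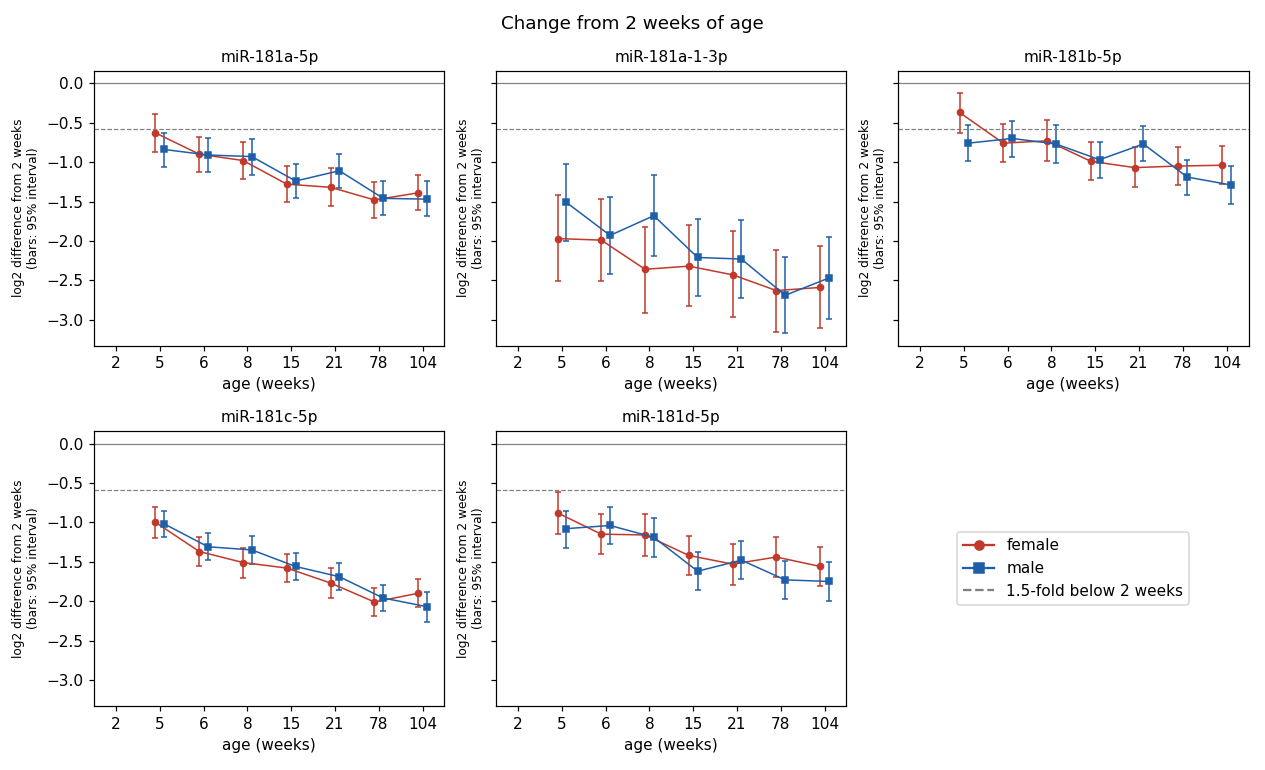
Log2 difference of each member from the 2-week animals of the same sex (vertical axis) at each later age (horizontal axis, weeks), with 95% intervals from limma. The dashed line marks a level 1.5-fold below that of 2 weeks. At 5 weeks the estimates run from -0.37 to -1.97 in females and from -0.76 to -1.51 in males, and the guides end between -1.04 and -2.07 at 104 weeks.

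The later steps were smaller, and 0 members were called in any of them. Between 5 and 8 weeks 1.29% of all miRNAs were called as falling in females and 0.322% in males. MiR-181c-5p differed by -0.51 in females (adjusted p = 8.19e-05 from limma) and by -0.33 in males (adjusted p = 0.0108), both under the fold threshold, and the 8-week animals were all below the 5-week animals in each sex. At an unadjusted p under 0.05 there were 4 members in females, with 14.8% of all miRNAs, and 1 in males, with 12.2%.

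Between 8 and 15 weeks, which also crosses slides, the shares called as falling were 0.643% in females and 0.965% in males. The largest difference of a guide was that of miR-181d-5p in males, -0.43 (adjusted p = 0.0462 from limma), under the fold threshold. An unadjusted p under 0.05 was found for 3 members and 20.3% of all miRNAs in females, and for 4 members and 15.1% in males.

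Between 21 and 104 weeks the shares were 1.93% in females and 8.68% in males. In females the 5 differences lay between -0.16 and 0.03, and 0 members had an unadjusted p under 0.05, against 12.5% of all miRNAs. In males, where 4 members and 38.3% of all miRNAs had such a p, miR-181b-5p differed by -0.52 (adjusted p = 4.37e-04), miR-181c-5p by -0.38 (6.57e-04) and miR-181a-5p by -0.35 (0.0117), all from limma and all under the fold threshold. These male differences moved with the scaling. The 166 miRNAs that all arrays detected had a median of -0.20 in this comparison, and with the percentile taken over those 166 it shifted by 0.32, so that the members were at -0.21 for miR-181b-5p, -0.06 for miR-181c-5p, -0.04 for miR-181a-5p, 0.04 for miR-181d-5p and 0.02 for miR-181a-1-3p.

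The ages of each set of slides were also tested alone. Over the ages of 2 to 8 weeks all 5 members were called in each sex, with 21.2% of all miRNAs in females and 30.2% in males. Over the ages of 15 to 104 weeks 0 members were called in each sex, with 7.40% of all miRNAs in females and 16.7% in males. Without the 2-week animals, 5 members and 28.9% of all miRNAs were called in males and 4 members and 20.3% in females, in which miR-181a-1-3p had an adjusted p of 0.174 from limma. That test was chosen after seeing the data.

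In the order of the group means, 2 weeks came first for every member in both sexes. In females the means of miR-181a-5p and of miR-181c-5p ran in the order of age from 2 to 21 weeks, with 104 weeks above 78 weeks at the end. In males miR-181c-5p followed age throughout, and miR-181a-5p, miR-181b-5p and miR-181d-5p each had a higher mean at 21 than at 15 weeks. Most neighbours in these orders overlapped: of the 7 neighbouring pairs per member and sex, 5 to 7 had overlapping ranges. The gap between the 2-week group and the next was free of overlap in both sexes for miR-181c-5p and miR-181d-5p and in males for miR-181a-5p and miR-181b-5p. For miR-181a-1-3p, on its deposited totals, it was so in females. The share of all miRNAs with such a gap was not counted, so this only describes the members.

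The passenger strand miR-181a-1-3p was detected on 9 of 9 arrays at 2 weeks. From 5 weeks on it was found on 14 of 32 arrays of females and 23 of 33 of males, and at 78 to 104 weeks on 1 of 10 and 3 of 9. Between 2 and 104 weeks the log2 difference was -2.59 in females and -2.47 in males (adjusted p = 2.88e-13 and 1.27e-12 from limma), with 4 of 5 females and 1 of 4 males of 104 weeks set to the floor, so that its size depends on the floor. Both other floors, one set before scaling and one scaled to the median array, gave -3.29 and -3.35 in females and -2.76 and -2.73 in males, and with normexp the differences were -0.30 (adjusted p = 0.126) and -0.43 (adjusted p = 0.0135) and under the call.

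How the deposited total is built affects these values. A total sums the probes of a miRNA that were detected and leaves out the others, and each member has 2 probes. For miR-181a-1-3p both probes were in the total on 8 of 9 arrays at 2 weeks, on 4 of 65 at later ages and on 0 of 9 at 104 weeks. When both probes were summed whether or not each was detected, an alternative chosen after the data had been seen, it fell by 1.83 in females and by 1.99 in males (adjusted p = 3.49e-15 and 8.48e-17 from limma). The brighter probe alone gave -1.78 and -1.92, and the dimmer probe, which is at the floor at 104 weeks, -1.19 and -1.40. At 78 weeks 0 of 5 females and 0 of 5 males detected the strand. On the summed probes its mean level at 2 weeks was 3.70-fold that at 78 weeks in females and 4.46-fold in males. Both are estimates, since the 78-week side rests on signals that were not called detected.

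Set against its own guide on the same arrays, miR-181a-1-3p lost more on the deposited totals. The guide is made from both a genes and this passenger from the first alone, so the arms of a single precursor are not what is compared. The log2 change of miR-181a-5p from 2 to 104 weeks exceeded that of miR-181a-1-3p by 1.21 in females and 1.01 in males, and the ranges of the per-array differences did not overlap between the ages (adjusted p = 0.0144 in each sex, exact two-sided permutation test). These sizes also rest on the floor, and both other floors gave 1.91 and 1.96 in females and 1.29 and 1.26 in males. Summing both probes brought this to 0.45 in females and 0.53 in males (adjusted p = 0.0198 and 0.0265, the same exact test). On the summed values the difference from the guide stood, relative to 2 weeks, at -0.51 ± 0.43 (SD, n = 4) in 5-week females, while in males it was -0.27 ± 0.29 (SD, n = 5) at 5 weeks and reached -0.70 ± 0.22 (SD, n = 5) by 78 weeks. With the dimmer probe alone the sign was turned in both sexes, to -0.23 and -0.01, and with normexp background correction to -0.28 and -0.78. The dimmer probe of miR-181a-1-3p is at the floor at 104 weeks. Normexp adds 50 to every signal, while deposited totals of miR-181a-1-3p reached at most 26.2, against 141 to 1106 for miR-181a-5p. Both settings thus narrow any fall of the passenger, so these signs cannot decide which strand fell more.

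**Figure D3:**
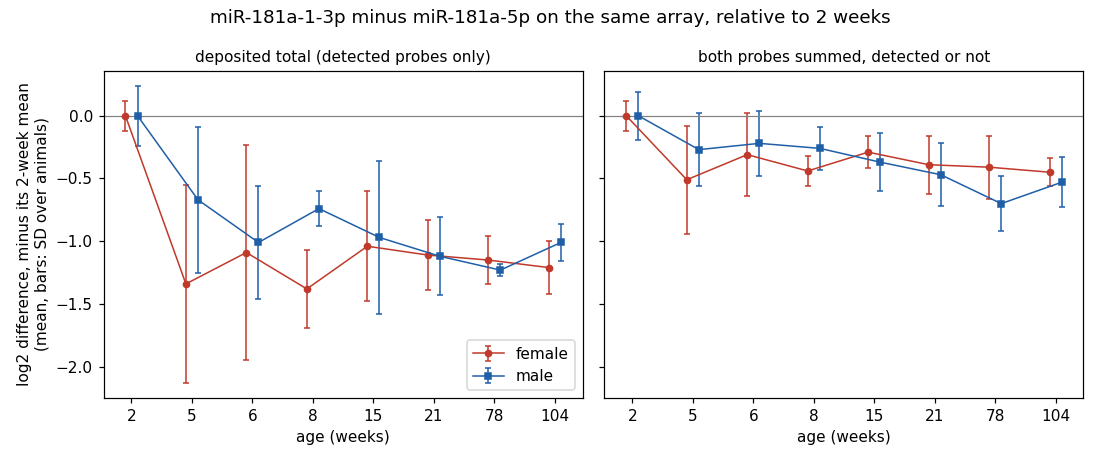
Log2 level of miR-181a-1-3p minus that of miR-181a-5p on the same array, relative to its mean at 2 weeks in the same sex (vertical axis), by age (horizontal axis, weeks); points are means and bars the SD over 4 or 5 animals. On the deposited totals (left) the 104-week females stand at -1.21 and the males at -1.01, and with both probes summed (right) at -0.45 and -0.53. The guide comes from both a genes and the passenger from the first alone.

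Members were then compared with each other in how far they fell between 2 and 104 weeks, by the log2 difference of 2 members on each array and an exact two-sided permutation test over animals. In each sex 10 pairs were tested, with p-values adjusted over all 20 tests, and the smallest p the design allows is 0.00794. In 18 of 20 tests the changes differed, 9 in each sex, against 11 with the dimmer probe of each member and 8 with normexp. MiR-181b-5p fell less than miR-181a-5p, which is encoded beside it, by 0.35 in females and 0.17 in males (adjusted p = 0.0227 in both, exact permutation test).

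On chromosome 19 the neighbours also parted. MiR-181c-5p fell more than miR-181d-5p by 0.34 in females and 0.32 in males (adjusted p = 0.0353 and 0.0298, exact permutation test). It fell more than miR-181a-5p, which is 1 edit away in sequence, by 0.51 and 0.61 (adjusted p = 0.0144 and 0.0227). MiR-181d-5p, 1 substitution away from miR-181b-5p, fell more than that strand by 0.52 and 0.46 (adjusted p = 0.0144 in both, exact permutation test). The order of the fall among the guides was thus c, d, a and b in both sexes, and this order depended on the background correction. With normexp it was c, a, d and b in females and a, c, d and b in males, where miR-181a-5p fell more than miR-181d-5p by 0.36 (adjusted p = 0.0227, exact permutation test). With quantile normalization the step from a to d in males was 0.00, and that from c to d in females was not called (adjusted p = 0.0529, exact permutation test), nor was the latter with the brighter probe (adjusted p = 0.149, the same test). The step from a to d was the smallest difference in females, 0.18 (adjusted p = 0.111, exact permutation test), and was not called there.

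The pairs with miR-181a-1-3p depend on its probes. On the deposited totals it fell more than miR-181b-5p, miR-181d-5p and miR-181a-5p in both sexes and more than miR-181c-5p in females, with -0.40 and an adjusted p of 0.0919 (exact permutation test) against miR-181c-5p in males, where both other floors gave -0.68 and -0.65 without a call and quantile normalization gave -0.84 with one. With both probes summed, its change differed from that of miR-181c-5p by 0.07 in females and 0.08 in males and from that of miR-181d-5p by -0.27 and -0.24, and none of these 4 was called (adjusted p from 0.0794 to 0.643, exact permutation test). Among the 4 guides alone 11 of 12 tests were called.

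Between the sexes 0 members were called at any age. Of all 311 miRNAs, 3.86% were called at 2 weeks, 0% at 5 weeks, 0.322% at 6 weeks and 1.29% at 8 weeks. Among older animals the shares called were 3.54% at 15, 4.82% at 21, 6.75% at 78 and 6.11% at 104 weeks. At an unadjusted p under 0.05 from limma there was 1 member at 6, 8, 15 and 104 weeks each, where 7.07%, 11.6%, 19.9% and 29.9% of all miRNAs had one. There were 2 members at 21 weeks, with 21.2% of all miRNAs, and 0 at the ages of 2, 5 and 78 weeks, with 20.9%, 3.22% and 32.8%.

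The nearest to a call was miR-181b-5p at 21 weeks. Its normalized intensities were 0.412, 0.420, 0.442 and 0.451 in females and 0.535, 0.638, 0.641, 0.648 and 0.659 in males. All males lay above all females, and on the 4 slides with both sexes the male was higher on 4 of 4, by 0.51 to 0.68 on the log2 scale. The difference of 0.53 (95% interval from 0.29 to 0.77, adjusted p = 0.00101 from limma) is under the fold threshold. It passed the threshold without 21-week male replicate 2 (0.59) and with the percentile taken over all miRNAs of the array (0.60), and it was 0.37 with the percentile taken over always-detected miRNAs.

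MiR-181a-5p, its neighbour on chromosomes 13 and 3, was at 1.82, 1.84, 2.04 and 2.16 in 21-week females and at 2.10, 2.33, 2.37, 2.54 and 2.85 in males, a difference of 0.31 (adjusted p = 0.0673 from limma). The groups overlapped by 1 animal of each sex. MiR-181c-5p and miR-181d-5p differed by 0.05 (95% interval from -0.13 to 0.23) and 0.15 (-0.11 to 0.40), and both turned to -0.11 and -0.02 with the percentile taken over always-detected miRNAs.

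The largest difference of the passenger strand was at 8 weeks, where miR-181a-1-3p was 0.74 higher in males (95% interval from 0.20 to 1.29, adjusted p = 0.143 from limma). There it was found on 4 of 4 arrays of males and 2 of 4 of females, and with both probes summed the difference was 0.41 (adjusted p = 0.241).

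**Figure D4:**
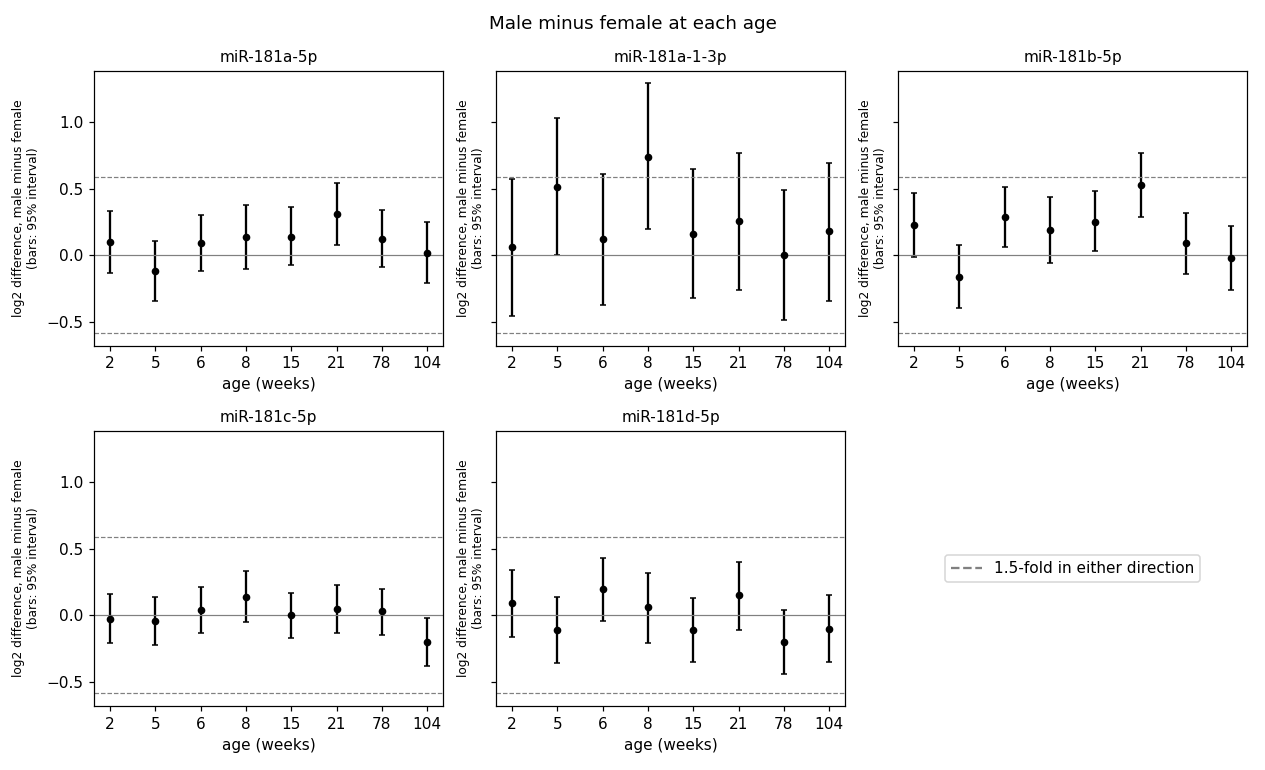
Log2 difference between males and females (male minus female, vertical axis) of each member at each age (horizontal axis, weeks), with 95% intervals from limma. The largest difference of a guide is 0.53 for miR-181b-5p at 21 weeks, and 0 of 40 differences were called.

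Whether the course with age differed between the sexes was tested as an interaction over all 8 ages, called by the adjusted p alone. MiR-181b-5p was called (adjusted p = 0.0307 from limma), and the other 4 members had adjusted p-values from 0.405 to 0.721, where 27.7% of all 311 miRNAs were called. Its male-minus-female difference was 0.23 at 2 weeks, -0.16 at 5 weeks, 0.29 at 6 weeks, 0.19 at 8 weeks, 0.25 at 15 weeks, 0.53 at 21 weeks, and in the oldest groups 0.09 at 78 and -0.02 at 104 weeks. The call was lost without any 1 of 7 animals, which are 21-week female replicates 3 and 5, 21-week male replicates 3 and 5, 5-week female replicate 6 and 5-week male replicates 1 and 3. It was also lost under 5 alternatives of the processing, among them both other sets of miRNAs for the percentile.

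Marker miRNAs of the cell types in a whole kidney moved over the same ages. Of all 311 miRNAs, 39 were called as rising between 2 and 104 weeks in females and 55 in males. Called as falling were 12.2% and 17.7%. Of the tubule miRNAs 3 of 3 rose between 2 and 104 weeks in each sex, and the median of their summed level went from 11.9 to 22.4 in females and from 8.71 to 14.7 in males. No 2-week animal reached the lowest animal of 104 weeks in either sex. The male median had stood at 26.1 at 21 weeks. Between 21 and 104 weeks 3 of 3 tubule miRNAs fell in males, where 8.68% of all miRNAs were called as falling. In females 0 of 3 were called as falling in that step, with 1.93% of all miRNAs. Of the leukocyte miRNAs, which are both strands of miR-142 with miR-150-5p and miR-223-3p, 2 of 4 rose in females and 4 of 4 in males. MiR-142-5p was detected on 10 of 74 arrays and set to the floor on the others, so the size of its change depends on the floor. The summed level of the 4 leukocyte miRNAs went from 2.00 to 2.12 to 3.32 to 3.57 in females and from 1.69 to 1.86 to 5.56 to 7.67 in males.

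Among mesenchymal and smooth-muscle miRNAs 2 of 4 fell in females and 1 of 4 in males, with summed levels of 16.9 to 19.2 at 2 weeks and 12.8 to 15.1 at 104 weeks in females and 17.4 to 19.1 and 13.1 to 16.5 in males. Of both endothelial strands of miR-126a 0 of 2 were called, and the median of their summed level went from 20.1 to 14.4 in females and from 17.5 to 12.9 in males.

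Red-cell miR-451-5p rose by 1.48 in females and 1.56 in males, and the summed level of the 2 red-cell miRNAs detected, of 3 listed, was 0.810 to 0.959 at 2 weeks and 1.84 to 3.73 at 104 weeks in females and 0.988 to 1.08 and 2.52 to 4.43 in males. The other one detected, miR-144-3p, was found on 5 of 74 arrays, and miR-486 is not on the array under that name. Of the neuronal pair, miR-124-3p was detected on 0 of 74 arrays and miR-9a-5p on all, and miR-9a-5p fell by 0.62 in females, from between 0.134 and 0.207 to between 0.0879 and 0.148, and by 1.19 in males, from between 0.160 and 0.235 to between 0.0684 and 0.126. The part of these cell types in the fall of the miR-181 family was not tested.

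The miR-17-92 cluster, which drives cell growth and division, was read beside the family as a list of growth-associated miRNAs. A part of the miR-181 family in growth was not tested. Between 2 and 5 weeks 3 of its 6 members fell in females and 2 in males, with medians of -0.60 and -0.56, and between 2 and 104 weeks 3 fell in each sex, with medians of -0.66 and -0.63. Of all miRNAs, 11.9% in females and 12.5% in males were called as falling to 5 weeks, and 12.2% and 17.7% to 104 weeks. Over the whole span miR-17-5p differed by -0.73 in females and between -1.19 and -0.82 (95% interval) in males, and miR-18a-5p by -1.46 and -1.26. The median changes of the 5 miR-181 members over the same spans were -0.88 and -1.02 to 5 weeks and -1.56 and -1.75 to 104 weeks.

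Likeness to miR-181a-5p was measured by Pearson's r over the 16 means of age and sex, a description over groups that share arrays and scaling. The family came close to the top of the 165 other miRNAs that every array detected: miR-181c-5p was first (r = 0.979), miR-181b-5p second (0.977) and miR-181d-5p had rank 4 (0.975), and miR-181a-1-3p, which was not detected on all arrays, had 0.957. Of the 162 miRNAs outside the family, 13 had an r over 0.9.

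The 5 most like outside the family were miR-542-5p (r = 0.977), miR-450a-5p (0.952), miR-196c-5p (0.950), miR-93-5p (0.950) and miR-322-3p (0.949). Of these, miR-542-5p, miR-450a-5p and miR-322-3p are listed within 5197 bases of each other on chromosome X in GRCr8. Between 2 and 104 weeks miR-542-5p changed by -2.62 in females and -2.22 in males. The most opposite courses were those of miR-29b-3p (r = -0.970) and miR-29a-3p (-0.968), which repress collagen messages and rose by 4.02 to 4.79 between 2 and 104 weeks in either sex, and of miR-7a-5p (-0.962), which rose by 1.37 and 1.66.

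**Figure D5:**
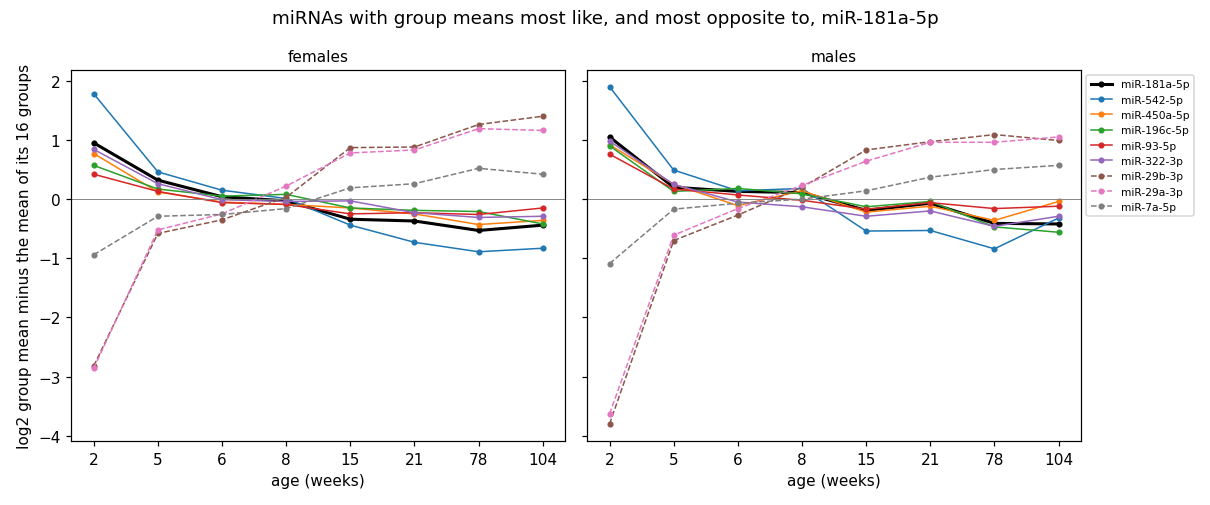
Log2 group mean minus the mean of the 16 groups (vertical axis) by age (horizontal axis, weeks) for miR-181a-5p in black, the 5 miRNAs outside the family with the highest r (solid lines) and the 3 with the lowest (dashed lines). The like ones are highest at 2 weeks and the opposite ones lowest, where miR-181a-5p stands 0.95 above its mean in females.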

How the data were processed

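Kidney RNA of 74 F344 rats was measured on single-colour Agilent rat miRNA arrays. The authors deposited, per the file headers, Feature Extraction output: a background-subtracted intensity per miRNA (total gene signal), summed over its detected probes and not normalized between arrays, and 0.1 where no probe was detected. A deposited table of normalized log2 intensities was not used, since 69 of its 74 columns equalled the array of another sample (within 0.01).

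Intensities were divided by each array's 75th percentile of the 311 detected miRNAs (81.2 to 283, median 156), as in the methods, raised to a common floor of 0.0171 (the lowest detected signal, 1.39, over the smallest percentile) and log2-transformed. Limma 3.58.1 (R 4.3.3) gave the tests of age, sex and their interaction, on 16 group means with 58 residual degrees of freedom or within each sex, and adjusted by Benjamini-Hochberg over 311 miRNAs. Calls needed an adjusted p under 0.05 and, except for interactions, a fold of at least 1.5. Pairs of members were tested by exact permutation (Python 3.11.15, NumPy 2.4.6, pandas 2.3.3). Code was tested on simulated data, and figures were drawn with matplotlib 3.10.9.

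Each array held an independent animal, so p-values measure the spread between animals. Named were all family members, the marker and miR-17-92 lists, and the 5 miRNAs most like and 3 most opposite to miR-181a-5p. Members and lists were chosen with earlier results of these data known. Alternatives varied the floor, scaling, background correction (normexp on median signals, since mean signals were not used here), probes, filters, tests, slide (fixed, or random with statmod 1.5.0), replicate number and single animals. A scan-day block, the ages from 5 weeks on, pairs among guides only and the sum of both probes were chosen after seeing the data.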

Additional observations from a re-analysis of the deposited data

Results flagged for a closer look

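In 78 groups of 4 or 5 animals the highest or lowest value of a member was set against the others by Dixon's ratio, and 7 stood apart, where chance gives about 1 in 20. MiR-181a-5p was at 2.20 in 78-week female replicate 5, with the other 4 at 1.58 to 1.74. MiR-181a-1-3p was at 0.0194 in 104-week female replicate 2, with the others at the floor, and at 0.0776 in 5-week male replicate 1, with the others at 0.0293 to 0.0364. MiR-181b-5p was at 0.535 in 21-week male replicate 2, below the others at 0.638 to 0.659.

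MiR-181d-5p stood apart in 3 groups, at 0.740 in 2-week female replicate 3 (others 0.546 to 0.566), at 0.345 in 6-week female replicate 4 (others 0.248 to 0.258) and at 0.231 in 104-week male replicate 2 (others 0.174 to 0.178). The first 2 of these, and the 5-week male above, were on slide 1. That slide had the highest mean deviation of miR-181d-5p from the group means, 0.20 on the log2 scale, but this mean includes those 2 animals. For miR-181a-1-3p, the strand of the 5-week male, the highest was that of slide 4, 0.10. The part of the slide in these values was not tested.

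The course of miR-181b-5p with age differed between the sexes by the interaction test, with an adjusted p of 0.0307 from limma.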

How the results depend on the processing

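Of 905 values of single members under an alternative, 872 stayed on the same side of zero and of the threshold, 17 fell under the threshold, 9 rose past it and 7 changed sign. Some alternatives left the guides untouched: both other floors and the sum of both probes returned the main changes from 2 to 104 weeks. The 872 include such values and so overstate how much was put to the test. Normexp, which adds 50 to each signal where members had totals of 0.1 to 1106, left 1 member called with age in females, 0 and 1 between 2 and 5 weeks in females and males, 1 between 2 and 104 weeks in females, and 8 of 20 pairs. Of all 311 miRNAs it called 20 with age in females, 13 and 22 between 2 and 5 weeks, and 40 between 2 and 104 weeks in females. Ages of 15 to 104 weeks alone gave 0 in each sex, with slide as a block too. Without the fold threshold there was 1 call between 5 and 8 weeks in each sex, with 16 of all 311 miRNAs in females and 17 in males. In males there was 1 between 8 and 15 weeks, with 10 of all miRNAs, and 3 between 21 and 104 weeks, with 104. Between the sexes at 21 weeks there was 1, with 32. Quantile normalization gave 1 between 5 and 8 weeks in females, testing all miRNAs 1 between the sexes at 8 weeks, and the percentile over all miRNAs 1 at 21 weeks. Of all miRNAs tested, 8, 18 and 15 were called there, in the same order. The interaction count was 0 with either other percentile, normexp, the dimmer probe or the replicate block, where 10 (normexp) to 85 (dimmer probe) of all miRNAs were called. The dimmer probe called 11 pairs. Pairs among the guides gave 11 of 12.

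With the percentile over always-detected miRNAs, miR-181a-1-3p was at 0.02 and miR-181d-5p at 0.04 between 21 and 104 weeks in males, and miR-181c-5p at -0.11 and miR-181d-5p at -0.02 between the sexes at 21 weeks, where the dimmer probe gave miR-181d-5p -0.08. With 1 animal left out it lay there between -0.05 (without 21-week female replicate 4) and 0.11 (without 21-week female replicate 3) for miR-181c-5p, with -0.02 without 21-week male replicate 2. Leaving out 1 animal gave 3 to 4 calls between 2 and 5 weeks in females, 0 to 1 between the sexes at 21 weeks, 0 to 1 for the interaction and 14 to 18 pairs. The cause of these changes was not tested.

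Replicate numbers do not pair the animals: the mean correlation of a female and a male of 1 age was 0.0377 for equal numbers (28 pairs) and -0.00385 otherwise (143). With the replicate number as a block the interaction of miR-181b-5p had an adjusted p of 0.0542 from limma, and no other count of called members moved by over 1.5 times. Between groups it was 0.155 within a slide (238 pairs) and -0.0134 across slides (2330). With slide as a fixed block the male age test could not be fitted. The lowest signal called detected was 1.39, while probes of the never-detected miR-181c-3p reached 2.29. Signals this low are thus hard to tell from background, which limits miR-181a-1-3p.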
